A study of Mus musculus with 12 samples.

Results

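Transcripts of 9 adhesion genes were described in EMRK1184luc lymphoma cells: Cdh17, Adgrg1, Jam2, Icam1, Icam2, Itgal, Itga4, Itgb7 and Actn1. They were picked by gene symbol, and all 9 were found among the 26305 genes of the count table and among the 11997 genes with enough counts to be tested. Because the genes were picked with their levels under WM-1119 and DMSO already known, those levels are given here as a description with no test. A test is given only for the average difference between 6 and 3 days and for other adhesion genes. The lists of those other genes were also drawn up with earlier results of these data known.

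EMRK1184 was derived from a B cell lymphoma of a female Eµ-Myc transgenic, a mouse in which the immunoglobulin heavy chain enhancer drives Myc in B cells. The cells carried a lentivirus with a luciferase gene, in all groups alike, so every library comes from 1 tumour's line. Cells were exposed to WM-1119 at 5 µM, a small molecule that blocks KAT6A and KAT6B, histone acetyltransferases of the MYST family, or to its vehicle DMSO. The 4 groups, each of 3 replicates, were WM-1119 for 3 days, DMSO for 3 days, WM-1119 for 6 days and DMSO for 6 days. The labels name no culture, day or batch for a replicate, so the errors measure the spread between these samples as prepared.

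Leukocytes hold on to vessel walls, matrix and each other through integrins, heterodimers of an α and a β chain that bind their ligands only after signals from inside the cell straighten them. Itgal encodes the α chain of LFA-1, which pairs with the β2 chain (Itgb2) and binds the immunoglobulin-fold proteins ICAM1 and ICAM2. Itga4 encodes the α4 chain, which pairs with β1 (Itgb1) to bind VCAM1 and fibronectin, or with β7 (Itgb7) to bind MAdCAM1 of gut vessels. Cadherins bind like to like in a calcium-dependent way, adhesion G protein-coupled receptors join a large extracellular region to a signalling receptor, and α-actinins cross-link actin filaments and tie integrin tails to them.

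Total counts were 18327651 to 28228807 per library with WM-1119 and 17928095 to 21712496 with DMSO at 3 days, and 14736267 to 17563985 with WM-1119 and 22831687 to 41749357 with DMSO at 6 days. Levels are given as CPM, in which counts are divided by a library total corrected with its TMM factor. Levels of different genes are set side by side only as RPKM, CPM per kilobase of the deposited gene length. Of 10 B cell markers 9 were above 1 CPM, and their summed level was 5763 to 5948 CPM with WM-1119 and 5387 to 5656 CPM with DMSO at 3 days, and 5755 to 6074 CPM with WM-1119 and 5395 to 5540 CPM with DMSO at 6 days. The B cell marker Ms4a1 had 1 count in all 12 libraries together. Col1a1, a fibroblast collagen, exceeded 1 CPM in 5 libraries, WM-1119 replicate 2 of 3 days (1.88 CPM), WM-1119 replicates 1 and 2 of 6 days (6.83 and 12.9 CPM) and DMSO replicates 1 and 2 of 6 days (6.10 and 2.08 CPM).

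The RefSeq promoter table of the same build (GRCm38.p6, which is mm10) held windows for 5 of the 9 genes, Itga4, Adgrg1, Icam1, Actn1 and Itgb7. Windows run from 250 bases before to 50 bases after a gene start. Icam1 and Adgrg1 are shown because both had higher levels with WM-1119 at each time while their windows hold different motifs. Itga4 and Itgb7 were also higher at each time, and their windows held neither of the motifs marked below. Capitals in the Icam1 window, chr9:21015690-21015989 on the plus strand, mark GGAAATTCC, a form of the κB motif bound by NF-κB family proteins. Capitals in the later Adgrg1 window, chr8:94984149-94984448 on the plus strand, mark both matches to TGANTCA, the AP-1 motif. The earlier Adgrg1 window, chr8:94976859-94977158, belongs to another start of the same gene and held none of the motifs searched.
Icam1: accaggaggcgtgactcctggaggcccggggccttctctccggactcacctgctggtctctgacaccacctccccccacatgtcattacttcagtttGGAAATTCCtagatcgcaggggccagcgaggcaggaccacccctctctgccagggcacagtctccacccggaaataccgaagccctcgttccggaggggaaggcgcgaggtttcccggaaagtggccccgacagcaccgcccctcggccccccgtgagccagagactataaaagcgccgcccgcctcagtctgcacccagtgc
Adgrg1, later start: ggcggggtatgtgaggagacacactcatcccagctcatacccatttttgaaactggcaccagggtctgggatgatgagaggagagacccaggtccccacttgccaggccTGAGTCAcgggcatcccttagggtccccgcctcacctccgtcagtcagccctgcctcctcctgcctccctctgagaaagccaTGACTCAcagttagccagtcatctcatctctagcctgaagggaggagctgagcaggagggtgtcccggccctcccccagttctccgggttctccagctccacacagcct
Adgrg1, earlier start: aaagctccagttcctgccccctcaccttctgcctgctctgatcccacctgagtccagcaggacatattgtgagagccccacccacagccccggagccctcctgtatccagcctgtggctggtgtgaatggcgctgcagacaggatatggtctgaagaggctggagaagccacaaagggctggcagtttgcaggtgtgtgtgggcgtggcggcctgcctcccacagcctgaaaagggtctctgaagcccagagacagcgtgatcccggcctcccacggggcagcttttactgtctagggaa

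Both strands were searched for 5 motifs: the κB form GGAAATTCC, the AP-1 motif TGANTCA, the E-box CACGTG, the GC box GGGCGG and the TATA box TATAAA. None of the 5 contains another, and the AP-1 and E-box motifs read alike on both strands and were counted once. GGAAATTCC was in 0.317% of 32851 promoter windows of the table, and began at base -153 from the Icam1 start. TGANTCA was in 7.81% of the windows and at least 2 times in 0.46%, and began at bases -141 and -59 from the later Adgrg1 start. The Icam1 window also held GGGCGG at 2 places, from bases -17 and 24, a motif found in 35.7% of windows. It held TATAAA, found in 13.6%, from base 14, which lies after this start and not before it. The Actn1 window held GGGCGG at 4 places and the Itga4 window at 1, and the Itgb7 window held none of the 5. Of the κB motif only this exact form was searched, and the windows shown were picked by their matches. Nothing is therefore read from how rare the motifs are. These matches describe letters in the windows, and no binding was measured.

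The 9 genes differed from DMSO in both directions under WM-1119. Cdh17, Adgrg1, Itgb7, Itgal, Icam1 and Itga4 were higher in WM-1119 than in DMSO at both times, Jam2 was lower at both times, Actn1 was lower at 3 days alone, and Icam2 was close to its DMSO level throughout. At 3 days the groups of 3 libraries did not overlap for any of the 9 genes, with 6 higher and 3 lower in WM-1119. Over all tested genes 39.9% had groups that did not overlap, 19.5% higher and 20.4% lower. At 6 days they did not overlap for 7, with 6 higher and 1 lower, beside 41.3% of all genes, 21.4% higher and 19.9% lower. The genes were chosen with these contrasts in view, so nothing is read from these counts.

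**Figure D1:**
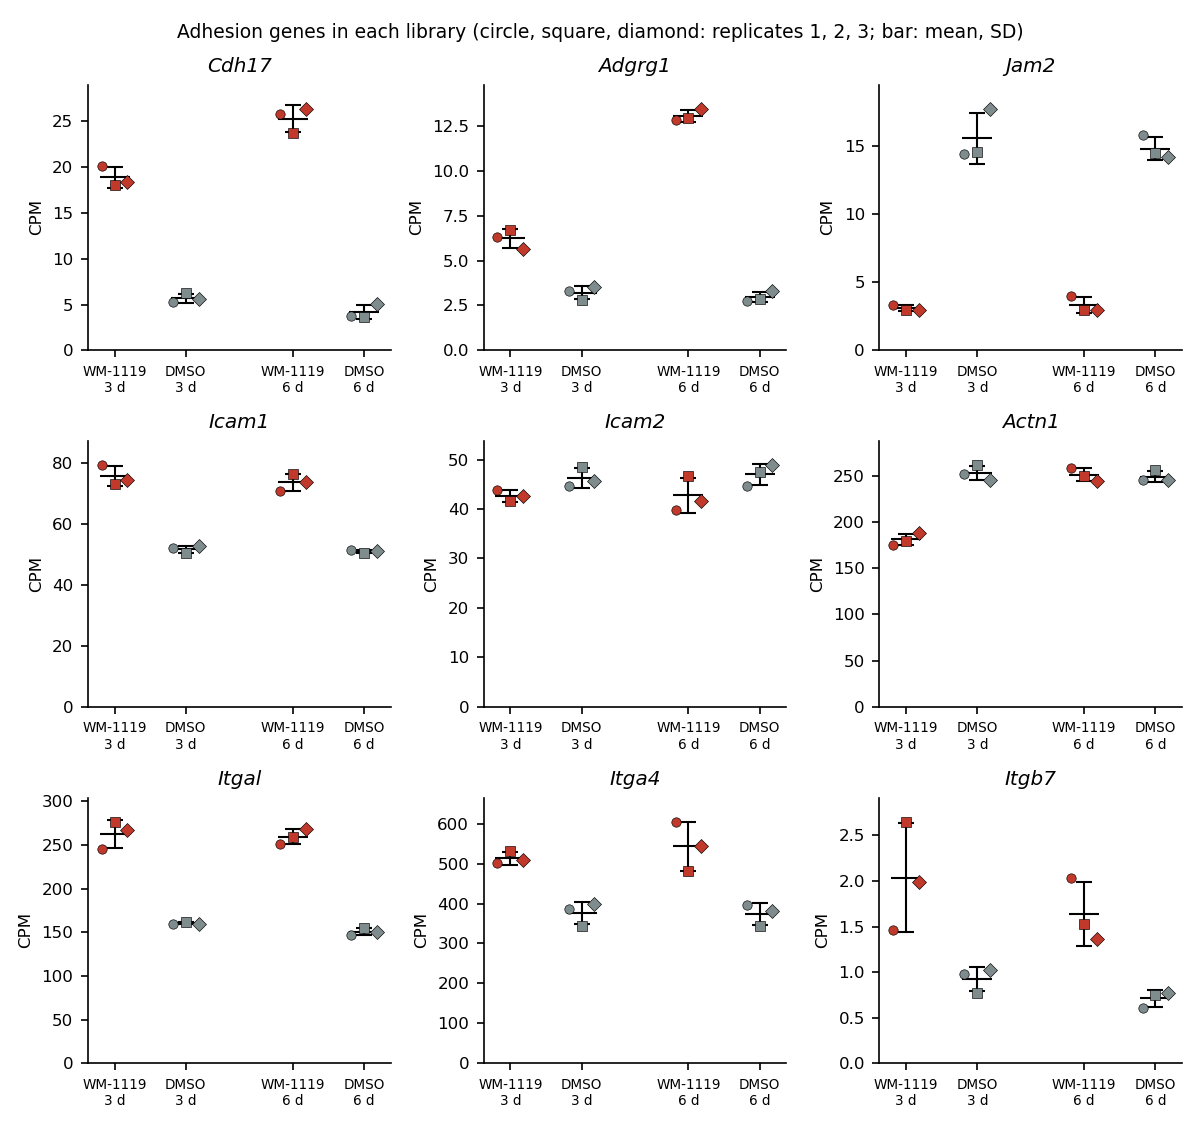
Level of each of the 9 genes in every library, in CPM on axes that start at 0; circles, squares and diamonds are replicates 1, 2 and 3, and bars show the mean and SD of 3 libraries. Cdh17 and Adgrg1 were highest with WM-1119 at 6 days (means of 25.3 and 13.1 CPM), Jam2 stood near 3 CPM with WM-1119 at both times, and Actn1 was low with WM-1119 at 3 days only.

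Cdh17 encodes cadherin-17, the liver-intestine cadherin, which in mice is also made by developing B cells. The gene lies on chromosome 4, 11758157 to 11817905 (mm10, plus strand). At 3 days it had 20.2, 18.1 and 18.4 CPM in the WM-1119 libraries, against 5.25, 6.23 and 5.56 CPM in the DMSO libraries. The 6 day levels were 25.9, 23.7 and 26.4 CPM with WM-1119, against 3.78, 3.68 and 5.04 CPM with DMSO. Every WM-1119 library lay far above every DMSO library, and the DMSO libraries of 6 days lay just below those of 3 days. The fitted level was 3.32-fold higher in WM-1119 at 3 days (log2 fold change 1.73 ± 0.11, SE, n = 3 each) and 6.11-fold higher at 6 days (2.61 ± 0.11). The effect was thus larger at 6 days by 0.88 ± 0.16 on the log2 scale, with WM-1119 libraries higher at 6 than at 3 days by 0.42 ± 0.10 and DMSO libraries lower by 0.46 ± 0.13. The order of the group means was WM-1119 at 6 days, WM-1119 at 3 days, DMSO at 3 days and DMSO at 6 days, and no neighbours in that order overlapped. Per length, Cdh17 averaged 7.31 ± 0.415 RPKM with WM-1119 and 1.20 ± 0.218 RPKM with DMSO at 6 days (SD, n = 3 each).

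Epithelial cells also make cadherin-17, so their markers were read beside it. None of 8 epithelial markers reached 1 CPM in any library, and Cdh1 and Cdx2 had 0 counts in all 12. The summed level of the 8 was 0.0525 to 0.378 CPM with WM-1119 and 0.325 to 1.01 CPM with DMSO at 3 days, and 0.0680 to 0.479 CPM with WM-1119 and 0.244 to 0.447 CPM with DMSO at 6 days.

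Adgrg1 encodes the adhesion G protein-coupled receptor GPR56, which binds collagen III and is used as a marker of blood stem cells and of cytotoxic lymphocytes. The gene lies on chromosome 8, 94974756 to 95014208 (plus strand), and RefSeq places the uncharacterised transcripts Gm30968 and Gm51544 across it. At 3 days it had 6.32, 6.73 and 5.66 CPM in the WM-1119 libraries, against 3.30, 2.80 and 3.52 CPM in the DMSO libraries. After 6 days it had 12.8, 12.9 and 13.5 CPM with WM-1119, against 2.73, 2.88 and 3.29 CPM with DMSO. The WM-1119 libraries of 6 days stood at about double those of 3 days, while the DMSO libraries of the 2 times overlapped. The level was 1.96-fold higher in WM-1119 at 3 days (log2 fold change 0.97 ± 0.14, SE) and 4.43-fold higher at 6 days (2.15 ± 0.12), so the effect differed by 1.18 ± 0.19 between the times. Group means ranked in the order WM-1119 at 6 days, WM-1119 at 3 days, DMSO at 3 days and DMSO at 6 days, of which only the DMSO neighbours overlapped.

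Jam2 encodes junctional adhesion molecule 2, an immunoglobulin-fold protein of endothelial and lymphatic cell contacts that binds JAM3 and the α4β1 integrin. The gene lies on chromosome 16, 84774123 to 84826380 (plus strand), with the uncharacterised transcript Gm46557 across it. At 3 days it had 3.35, 2.93 and 2.99 CPM in the WM-1119 libraries, against 14.4, 14.6 and 17.8 CPM in the DMSO libraries. Its levels at 6 days were 4.01, 3.00 and 2.99 CPM with WM-1119, against 15.8, 14.5 and 14.2 CPM with DMSO. The 2 treatments were widely separated, and within each treatment the libraries of 3 and 6 days overlapped. The level was 5.05-fold lower in WM-1119 at 3 days (log2 fold change -2.34 ± 0.13, SE) and 4.45-fold lower at 6 days (-2.15 ± 0.13). The highest group mean was DMSO at 3 days, then DMSO at 6 days, then WM-1119 at 6 days and WM-1119 at 3 days.

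Endothelial cells are a usual source of Jam2 and Icam2, so endothelial markers were read beside them. Kdr, Tie1 and Vwf had 0 counts in all 12 libraries and Cdh5 at most 0.310 CPM. Of the 8 markers 2 passed 1 CPM in any library, Pecam1, which B cells also make (86.2 to 104 CPM), and Emcn (at most 1.20 CPM). Emcn, singled out after its values were seen, was lower with WM-1119, in the same direction as Jam2, with 0.447 CPM with WM-1119 and 0.897 CPM with DMSO at 3 days (log2 fold change -1.07 ± 0.34; edgeR adjusted p = 0.0236), and 0.649 CPM with WM-1119 and 1.15 CPM with DMSO at 6 days (-0.81 ± 0.30; 0.0459). Its 3 day call was lost without WM-1119 replicate 2 (0.180) or DMSO replicate 1 (0.111) of 3 days, and its 6 day call without any 1 library other than WM-1119 replicate 2 of 3 days (up to 0.128). The 3 day call was also lost with DESeq2 (0.0713) and with thinned libraries (0.113). At 6 days it was also lost with DESeq2 (0.129), limma voom (0.0516) and thinned libraries (0.127). Further losses there came with upper-quartile scaling (0.0501), no filter (0.0906), the groups alone (0.0596) and the replicate block (0.0598). The part of endothelial transcripts in the Jam2 level was not tested. The summed level of the 8 was 88.0 to 96.2 CPM with WM-1119 and 91.6 to 99.5 CPM with DMSO at 3 days, and 86.9 to 88.2 CPM with WM-1119 and 99.8 to 105 CPM with DMSO at 6 days. In bulk RNA, fewer cells that make a transcript and less of it per cell cannot be told apart.

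**Figure D2:**
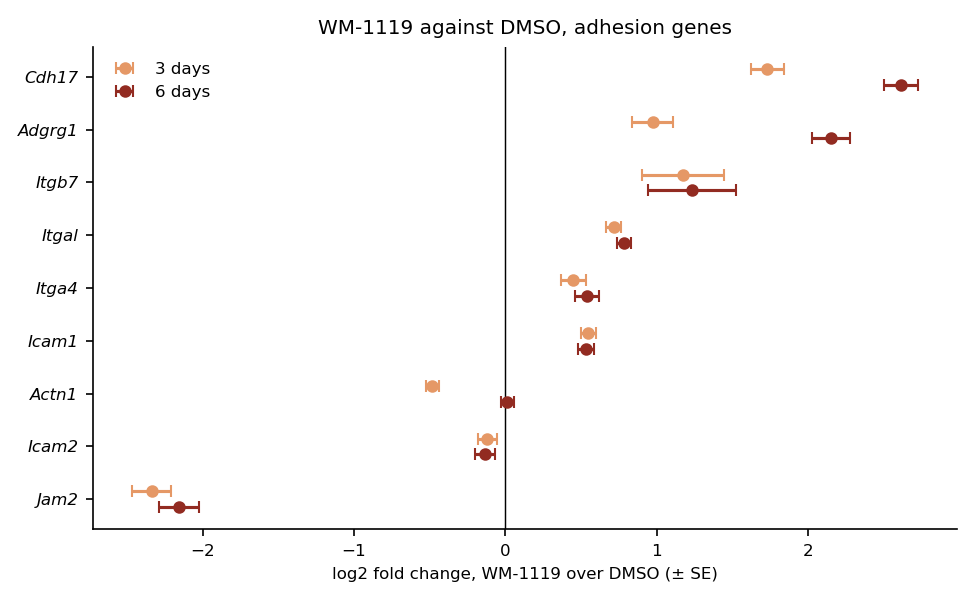
Log2 fold change of WM-1119 over DMSO for the 9 genes at 3 days and 6 days, from the edgeR fit, with standard errors as bars; values right of 0 are higher in WM-1119. Cdh17 and Adgrg1 lay further right at 6 days (2.61 and 2.15) than at 3 days (1.73 and 0.97), and Actn1 lay at -0.48 at 3 days and 0.01 at 6 days.

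Icam1 and Icam2 encode ligands of LFA-1, and their transcripts differed in how they stood under WM-1119. Icam1 (chromosome 9, 21015940 to 21028814, plus strand) had 79.4, 73.4 and 74.6 CPM with WM-1119 at 3 days, against 52.1, 50.5 and 52.7 CPM with DMSO. After 6 days it had 71.0, 76.4 and 73.7 CPM with WM-1119, against 51.4, 50.6 and 51.2 CPM with DMSO. All 6 WM-1119 libraries exceeded all 6 DMSO libraries, by 1.46-fold at 3 days (log2 fold change 0.55 ± 0.05, SE) and 1.44-fold at 6 days (0.53 ± 0.05). The times overlapped within either treatment.

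Icam2 (chromosome 11, 106377656 to 106388139, minus strand) had 43.8, 41.6 and 42.5 CPM with WM-1119 at 3 days, against 44.6, 48.6 and 45.6 CPM with DMSO. At 6 days it had 39.9, 46.6 and 41.7 CPM with WM-1119, against 44.7, 47.5 and 48.9 CPM with DMSO. The WM-1119 libraries of 3 days lay narrowly below those of DMSO, and the groups of 6 days overlapped. Its log2 fold changes were -0.12 ± 0.06 at 3 days and -0.14 ± 0.06 at 6 days. All 4 groups of Icam2 lay so near each other that every pair of neighbours in the order of their means overlapped. Per length, Icam1 stood at 79.9% ± 1.43 of Icam2 with WM-1119 and 50.4% ± 3.16 with DMSO at 3 days, and at 77.7% ± 3.51 with WM-1119 and 48.9% ± 2.43 with DMSO at 6 days (RPKM ratios within a library, SD, n = 3 each).

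Itgal, on chromosome 7 (127296139 to 127335137, plus strand), had 245, 277 and 267 CPM in the WM-1119 libraries of 3 days, against 159, 162 and 159.9 CPM in the DMSO libraries. The 6 day levels were 251, 258 and 268 CPM with WM-1119, against 147, 155 and 150.1 CPM with DMSO. The treatments were fully separated, and the DMSO libraries of 6 days lay just under those of 3 days. The LFA-1 α chain transcript was 1.64-fold higher in WM-1119 at 3 days (log2 fold change 0.71 ± 0.05, SE) and 1.72-fold higher at 6 days (0.78 ± 0.05). T cells and myeloid cells also make LFA-1. Of 8 T cell markers Cd3e, Cd3d, Cd4, Cd8a, Cd8b1 and Ctla4 had 0 counts in all libraries, and Cd3g had 1 count. The 8 summed to 0.244 to 0.682 CPM with WM-1119 and 0.821 to 1.72 CPM with DMSO at 3 days, and to 0.299 to 0.612 CPM with WM-1119 and 0.576 to 1.42 CPM with DMSO at 6 days. But for that 1 count, these sums are the level of the single gene Cd28 (0.244 to 1.67 CPM). Of 8 myeloid markers 3 passed 1 CPM, Itgam (100.4 to 124 CPM), Csf1r (0.569 to 4.97 CPM) and Cd68 (1.91 to 4.13 CPM). Elane had 0 counts in all libraries, and Lyz2, Cd14, Adgre1 and Mpo had at most 0.270, 0.241, 0.136 and 0.0680 CPM. The 8 summed to 109 to 115 CPM with WM-1119 and 116 to 123 CPM with DMSO at 3 days, and to 125 to 129.7 CPM with WM-1119 and 116 to 118 CPM with DMSO at 6 days. Most of each sum was Itgam, itself an integrin gene. The part of myeloid transcripts in the Itgal level was not tested.

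Itga4, on chromosome 2 (79255426 to 79333114, plus strand), had 500.5, 531 and 509 CPM in the WM-1119 libraries of 3 days, against 386, 345 and 399 CPM in the DMSO libraries. At 6 days it had 605, 481 and 543 CPM with WM-1119, against 397, 343 and 381 CPM with DMSO. The WM-1119 libraries of 6 days were the most scattered group, yet the lowest of them stood above every DMSO library. The level was 1.36-fold higher in WM-1119 at 3 days (log2 fold change 0.45 ± 0.08, SE) and 1.45-fold higher at 6 days (0.54 ± 0.08). Cerkl, which overlaps Itga4, had a mean of 3.14 CPM, and how reads in the overlap were counted is not known.

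Itgb7, on chromosome 15 (102215994 to 102233405, minus strand), had the fewest counts of the 9 in every library, and rests on 16 to 76 counts per library. It had 1.46, 2.65 and 1.99 CPM with WM-1119 at 3 days, against 0.975, 0.772 and 1.02 CPM with DMSO. Levels at 6 days were 2.04, 1.53 and 1.36 CPM with WM-1119, against 0.610, 0.753 and 0.772 CPM with DMSO. The WM-1119 libraries lay above the DMSO libraries at each time, but those of 3 days were spread more widely than the gap to the highest DMSO library. The level was 2.26-fold higher at 3 days (log2 fold change 1.18 ± 0.27, SE) and 2.35-fold higher at 6 days (1.23 ± 0.29). The 4 groups ranked WM-1119 at 3 days, WM-1119 at 6 days, DMSO at 3 days and DMSO at 6 days, and the WM-1119 neighbours overlapped.

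The α and β chains were not all present in equal measure. Per length, Itga4 averaged 52.2 ± 1.64 RPKM with WM-1119 and 38.3 ± 2.87 RPKM with DMSO at 3 days, and Itgal averaged 50.3 ± 3.07 RPKM with WM-1119 and 30.7 ± 0.242 RPKM with DMSO. Of their β chains, Itgb1 averaged 49.4 ± 1.40 RPKM with WM-1119 and 45.1 ± 2.78 RPKM with DMSO at 3 days, and Itgb2 averaged 18.7 ± 0.208 RPKM with WM-1119 and 17.0 ± 1.55 RPKM with DMSO. Itgb7 stood at 1.55% ± 0.491 of Itgb1 with WM-1119 and 0.764% ± 0.0916 with DMSO at 3 days, and at 1.12% ± 0.233 with WM-1119 and 0.554% ± 0.0655 with DMSO at 6 days. By transcript, Itgb1 exceeded Itgb7, the other β chain that α4 can pair with, in all 12 libraries. Itga4 was nearer to Itgb1, at 105.8% ± 6.02 of it with WM-1119 and 84.9% ± 5.11 with DMSO at 3 days. At 6 days Itga4 stood at 100.2% ± 9.65 of Itgb1 with WM-1119 and 79.2% ± 5.41 with DMSO. Itgal exceeded Itgb2 per length in every group, at 269% ± 17.0 of it with WM-1119 and 182% ± 16.3 with DMSO at 3 days, and at 241% ± 13.3 with WM-1119 and 161% ± 5.75 with DMSO at 6 days.

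**Figure D3:**
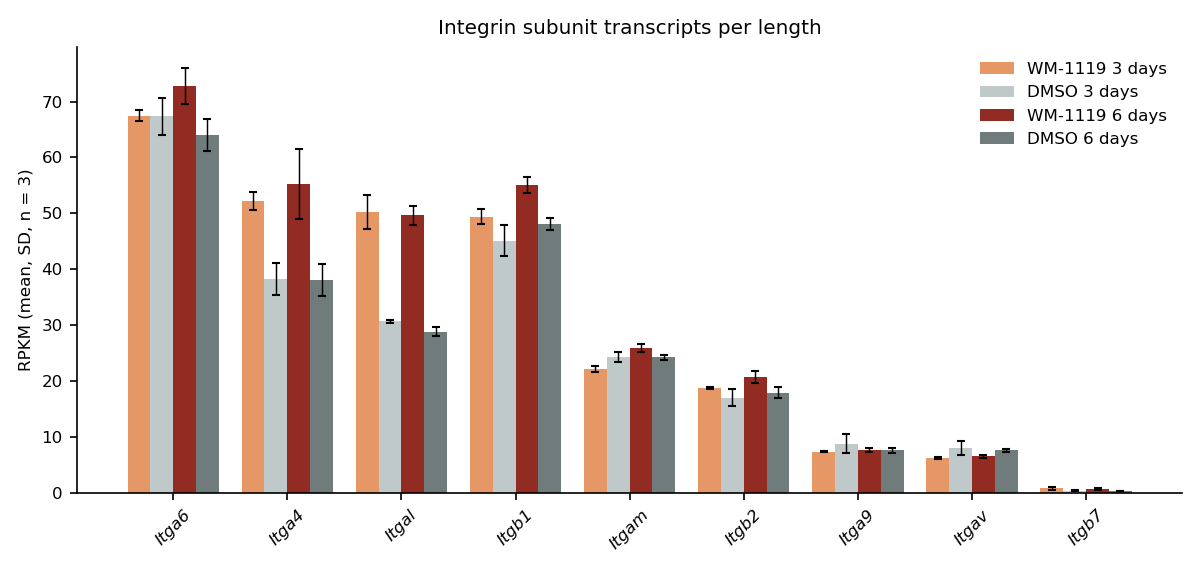
Mean RPKM with SD (n = 3) of the integrin subunits that average at least 1 RPKM, and of Itgb7, in the 4 groups; bars start at 0. Itga4 and Itgal stood near 50 RPKM with WM-1119, above their DMSO bars, Itgb1 stood between 45.1 and 55.0 RPKM, and Itgb7 stayed below 1 RPKM.

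Itgb1 rose at 6 days, where it had 231 ± 5.74 CPM with WM-1119 and 201 ± 4.44 CPM with DMSO (log2 fold change 0.20 ± 0.05; edgeR adjusted p = 0.00261), and Itgb2 rose by 0.21 ± 0.07 (adjusted p = 0.0177). Both steps were smaller than those of the α chains Itga4 (0.54) and Itgal (0.78) at the same time, a difference that was not tested. The Itgb2 call was lost without WM-1119 replicate 2 (adjusted p = 0.118) or DMSO replicate 1 of 6 days (0.107). At 3 days Itgb1 passed narrowly (0.13 ± 0.05; adjusted p = 0.0450) and was not called without any 1 of the WM-1119 libraries, DMSO replicate 1 or 2 of 3 days, WM-1119 replicate 1 or 3 of 6 days, or DMSO replicate 1 or 2 of 6 days (adjusted p up to 0.196). Itgb2 did not pass at 3 days (0.14 ± 0.07; adjusted p = 0.131), though it did without DMSO replicate 3 of 3 days (0.0372). The ligands of the α4 integrins on vessels were close to absent, with 11 counts of Vcam1 and 1 count of Madcam1 in all 12 libraries together. Fn1, which encodes fibronectin, had 0.891 ± 0.439 CPM with WM-1119 and 0.426 ± 0.124 CPM with DMSO at 3 days, and 4.65 ± 4.21 CPM with WM-1119 and 2.05 ± 1.88 CPM with DMSO at 6 days. It did not pass at either time (adjusted p = 0.659 and 0.395), although at 3 days it passed in a fit of the compared groups alone (adjusted p = 0.0410). Its 5 highest libraries were those with over 1 CPM of Col1a1, and the part of fibroblast transcripts in its level was not tested.

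Actn1 encodes the non-muscle α-actinin 1 and lies on chromosome 12, 80167542 to 80260420 (minus strand). At 3 days it had 176, 179.8 and 188 CPM in the WM-1119 libraries, against 252, 262 and 246 CPM in the DMSO libraries. At 6 days it had 259, 249 and 245 CPM with WM-1119, against 246, 256 and 246 CPM with DMSO. The WM-1119 libraries of 3 days stood alone below all others, and the other 3 groups overlapped. The level was 1.40-fold lower in WM-1119 at 3 days (log2 fold change -0.48 ± 0.04, SE), and at 6 days the log2 fold change was 0.01 ± 0.04. WM-1119 libraries were thus higher at 6 than at 3 days by 0.47 ± 0.04 on the log2 scale, and DMSO libraries differed by -0.02 ± 0.04. Fibroblasts also make α-actinin 1, so the levels of 10 fibroblast markers were summed. The sums were 11.1 to 13.6 CPM with WM-1119 and 17.2 to 20.1 CPM with DMSO at 3 days. At 6 days they were 11.2 to 40.8 CPM with WM-1119 and 17.8 to 29.4 CPM with DMSO. Fbn1, named after its values were seen, had the most counts of the 10 (9.91 to 18.01 CPM over all libraries). Col1a1 overlapped between the treatments at 3 days, with 0.757, 1.88 and 0.315 CPM with WM-1119 and 0.975, 0.772 and 0.454 CPM with DMSO. The part of fibroblast transcripts in the Actn1 level was not tested. In the pair of 6 day libraries with under 1 CPM of Col1a1, replicate 3 of each treatment, Actn1 had 245 CPM with WM-1119 and 246 CPM with DMSO.

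Averaged over both treatments, 6 days was compared with 3 days in the 12 libraries. In this average the WM-1119 and DMSO libraries of a time are added, not set against each other. A difference between the times under WM-1119 alone still enters it, so the test is not free of the WM-1119 effect. Whether earlier results on time also bore on the choice of the 9 genes is not known. Of the 9 genes 2 were higher at 6 days in this average, Adgrg1 by 0.47 ± 0.09 on the log2 scale (edgeR adjusted p = 0.00321) and Actn1 by 0.22 ± 0.03 (adjusted p = 0.000170). None was called lower, where 8.86% of all genes were called, 3.56% higher and 5.30% lower. For both, all 3 WM-1119 libraries of 6 days lay above all 3 of 3 days while the DMSO libraries of the times overlapped. Within WM-1119 the times differed by 1.06 ± 0.12 for Adgrg1 and 0.47 ± 0.04 for Actn1. Within DMSO they differed by -0.12 ± 0.15 and -0.02 ± 0.04. Both calls thus describe a rise seen under WM-1119, not one shared by the treatments. The other 7 did not pass: Itgb7 differed by -0.37 (adjusted p = 0.259), Itgal by -0.05 (0.316), and Cdh17, Jam2, Icam1, Icam2 and Itga4 by -0.03 to 0.04 (0.644 to 0.919). For Cdh17 the average hides opposite differences, since its WM-1119 libraries were higher and its DMSO libraries lower at 6 days.

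Adhesion genes outside the 9 were read from 8 lists with 215 genes, of which 118 were tested. Of these, 27 rose and 23 fell with WM-1119 at 3 days, 42.4% in all by edgeR's quasi-likelihood test, where 24.4% of all genes were called, 11.8% rising and 12.7% falling. At 6 days 38 rose and 23 fell, 51.7% in all, where 30.8% of all genes were called, 15.7% rising and 15.1% falling. The lists were drawn up with earlier results of these data known, so nothing is read from these shares. The median log2 fold change over the 118 was 0.05 at 3 days and 0.12 at 6 days, with 0.00 for all genes at each time. Without the 5 libraries with over 1 CPM of Col1a1, which leaves 1 library for each treatment at 6 days with a spread taken from the other groups, 18 rose and 13 fell there. In that fit the 6 day calls of Itgb1, Itgb2, Itga1, Itga6, Itgav, Pcdhgc3, Cd24a and Spn were lost (adjusted p = 0.199 to 0.737), as were the 3 day calls of Itgb1, Itgam, Adgrl1 and Cd24a (0.0535 to 0.185). Their 6 day log2 fold changes kept their signs there, with values such as 0.19 for Itgb1, -0.20 for Itgav and 0.13 for Spn close to those of all libraries, and smaller ones of -0.54 for Itga1, 0.09 for Itga6 and 0.05 for Cd24a. The change of the WM-1119 effect between the times passed in 0 of the 118 by edgeR, where 0.725% of all genes passed. It also passed in 0 of them by DESeq2 or limma voom. At an unadjusted p below 0.05 there were 18, 12 and 18 of the 118 by edgeR, DESeq2 and limma voom. The share of all genes at that unadjusted limit was not taken, so no excess is read from these counts. The genes named below are those with the smallest p of each list, and counts for 1 list are given with their range over the 12 fits that each left out 1 library.

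**Figure D4:**
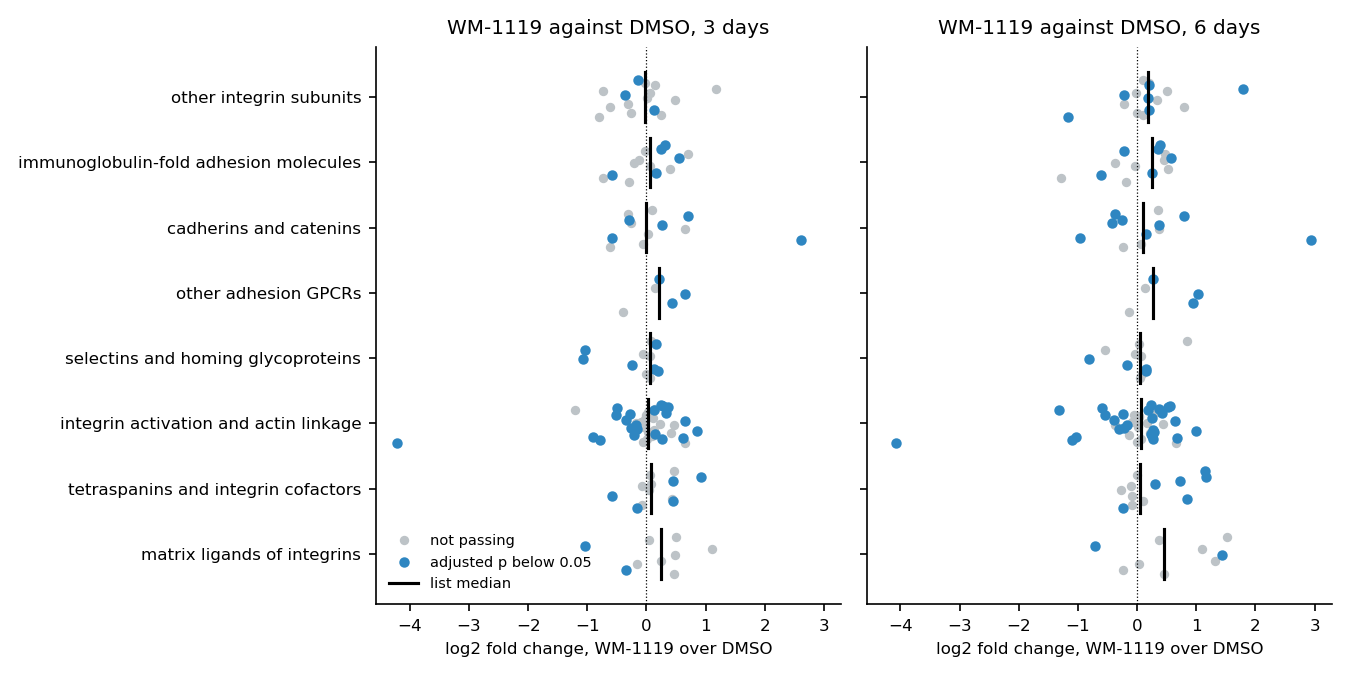
Log2 fold change of WM-1119 over DMSO for the 118 tested genes of the 8 adhesion lists at 3 and 6 days; each point is a gene, blue points have an edgeR adjusted p below 0.05, and black lines are list medians. Called genes lie on both sides of 0 in most lists, and the point at the far left of the actin linkage list is Actn2 (-4.22 at 3 days, -4.08 at 6 days).

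Of 15 other integrin subunits tested, 1 rose (0 to 3) and 2 fell (1 to 4) at 3 days, and 4 rose (2 to 4) and 2 fell (0 to 2) at 6 days. Itga6, the laminin receptor α chain and per length the most abundant integrin transcript, had 306 CPM with WM-1119 and 269 CPM with DMSO at 6 days (log2 fold change 0.19; adjusted p = 0.00446; 0.0569 without WM-1119 replicate 1 of 6 days). Itgav, which encodes the αv chain, fell at 3 days to 43.8 CPM with WM-1119, against 56.3 CPM with DMSO (-0.36; adjusted p = 0.00317). Its difference at 6 days (-0.22; adjusted p = 0.0476) was called without DMSO replicate 2 or 3 of 3 days but not without any 1 of the other 10 libraries (up to 0.136). Itgam, the α chain that pairs with β2 in myeloid cells, differed by -0.14 at 3 days (adjusted p = 0.0280), a call lost without WM-1119 replicate 2 (0.129) or 3 (0.0593) or DMSO replicate 2 (0.111) of 3 days. It was also lost with upper-quartile scaling (0.0583), no filter (0.0687), the 3 day groups alone (0.0537) and thinned libraries (0.0555). Itga1, a collagen receptor chain, had 0.731 CPM with WM-1119 and 1.65 CPM with DMSO at 6 days (-1.17; adjusted p = 0.00927), which just missed the threshold without WM-1119 replicate 1 (0.0527) or 2 (0.0502) of 6 days.

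Among 13 other immunoglobulin-fold adhesion molecules, 4 rose (3 to 4) and 1 fell (0 to 1) at 3 days, and 4 rose (4 to 4) and 2 fell (1 to 3) at 6 days. Cd2, whose product binds CD48 on neighbouring lymphocytes in mice, rose to 76.9 CPM with WM-1119, against 52.6 CPM with DMSO at 3 days (0.55; adjusted p = 3.50e-07) and by 0.57 at 6 days (9.30e-08). Cd48 itself rose by 0.25 and 0.35 (adjusted p = 0.00198 and 3.57e-05). Igsf8, which encodes a tetraspanin partner, rose by 0.31 and 0.38 (adjusted p = 0.000445 and 2.95e-05).

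Of 12 other cadherins and catenins, 3 rose (1 to 3) and 2 fell (1 to 3) at 3 days, and 4 rose (2 to 5) and 4 fell (2 to 4) at 6 days. Ctnnb1, the β-catenin that ties cadherins to actin and acts in Wnt signalling, fell to 434 CPM with WM-1119, against 529.8 CPM with DMSO at 3 days (-0.29; adjusted p = 2.14e-05) and by 0.26 at 6 days (5.04e-05). Celsr2, a planar polarity cadherin, fell at 6 days (-0.97; adjusted p = 0.000314), and its 3 day call (-0.58; 0.0171) was lost without WM-1119 replicate 1 (0.0791) or DMSO replicate 1 (0.117) of 3 days. Pcdhgc3, a clustered protocadherin, rose at 6 days (0.37; adjusted p = 0.000947), and its 3 day call (0.27; 0.0121) was lost without DMSO replicate 1 (0.0573) or 3 (0.0736) of 3 days. Pkp2, a desmosomal plakophilin, rose to 0.535 CPM with WM-1119, against 0.0849 CPM with DMSO at 3 days (adjusted p = 0.00115), and to 1.09 CPM with WM-1119, against 0.139 CPM with DMSO at 6 days (8.70e-06), on few counts.

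Of 5 other adhesion G protein-coupled receptors 3 rose at 3 days (2 to 4) and 3 at 6 days (3 to 3), and 0 fell. Adgrl2, a latrophilin, had 134 CPM with WM-1119 and 84.9 CPM with DMSO at 3 days (0.66; adjusted p = 2.31e-05), and 155 CPM with WM-1119 and 75.8 CPM with DMSO at 6 days (1.03; 1.13e-07). Adgrg3, which starts 2905 bases beyond Adgrg1 on chromosome 8, had 14.99 CPM with WM-1119 and 11.1 CPM with DMSO at 3 days (0.43 ± 0.10; adjusted p = 0.00273), and 16.5 CPM with WM-1119 and 8.52 CPM with DMSO at 6 days (0.95 ± 0.10; 1.82e-07). Adgrl1, another latrophilin, rose at 6 days (0.27; adjusted p = 0.00715), and its 3 day call (0.21; 0.0388) was lost without WM-1119 replicate 2 (0.213) or 3 (0.0839) or DMSO replicate 1 (0.131) or 3 (0.152) of 3 days.

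Of 11 selectins and homing glycoproteins, 3 rose (2 to 3) and 3 fell (1 to 3) at 3 days, and 2 rose (0 to 2) and 2 fell (0 to 2) at 6 days. The hyaluronan receptor gene Cd44 rose at 3 days (0.16; adjusted p = 0.0105) and did not pass at 6 days (0.04; 0.590). Spn, which encodes the leukocyte mucin CD43, rose at 3 days (0.19; adjusted p = 0.00432), and its 6 day call (0.14; 0.0251) was lost without WM-1119 replicate 2 (0.130) or 3 (0.0810) or DMSO replicate 1 (0.0817) or 2 (0.0602) of 6 days. Cd24a, a surface glycoprotein gene of immature B cells, had 2529 CPM with WM-1119 and 2312 CPM with DMSO at 3 days (0.13; adjusted p = 0.0355). That call was lost without WM-1119 replicate 1 (0.152) or 2 (0.0633) or any 1 of the DMSO libraries of 3 days (up to 0.185), and the 6 day call (0.15; 0.0146) without WM-1119 replicate 2 (0.0637) or DMSO replicate 1 (0.0644) or 2 (0.0818) of 6 days.

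The list of genes that activate integrins or link them to actin had 41 tested members, of which 10 rose (8 to 12) and 11 fell (8 to 12) at 3 days and 15 rose (14 to 16) and 11 fell (9 to 11) at 6 days. The 3 with the smallest p act on LFA-1 and related integrins from inside the cell. Fermt3, the haematopoietic kindlin that binds β integrin tails, rose to 261 CPM with WM-1119, against 166 CPM with DMSO at 3 days (0.65 ± 0.05; adjusted p = 8.05e-10), and by 0.64 ± 0.05 at 6 days (6.50e-10). Rasgrp2, the exchange factor that loads the integrin-activating GTPase Rap1, rose to 177 CPM with WM-1119, against 98.3 CPM with DMSO at 3 days (0.85 ± 0.05; adjusted p = 2.72e-11), and by 0.99 ± 0.05 at 6 days (1.35e-12). Parvg, a parvin of the integrin-linked kinase complex, rose by 0.62 and 0.68 (adjusted p = 4.47e-10 and 5.40e-11). Members of the same list that fell were named after their values were seen. Rap1a, which encodes the GTPase itself, fell by 0.34 ± 0.08 at 3 days and 0.39 ± 0.08 at 6 days (adjusted p = 0.00350 and 0.000784), and Rapgef3, another exchange factor for it, by 0.79 ± 0.10 and 1.11 ± 0.11 (4.08e-06 and 4.26e-08). Skap1, an adaptor of integrin activation in T cells, fell by 0.90 ± 0.13 and 1.03 ± 0.14 (adjusted p = 3.91e-05 and 6.39e-06), and Vcl, which encodes the actin linker vinculin, by 0.51 ± 0.06 and 0.54 ± 0.06 (2.51e-06 and 6.81e-07). Actn2, the muscle paralogue of Actn1, was also named after its values were seen. It fell to 0.147 ± 0.0371 CPM with WM-1119, against 2.89 ± 0.348 CPM with DMSO at 3 days (-4.22 ± 0.33; adjusted p = 4.25e-09), and to 0.124 ± 0.0624 CPM with WM-1119, against 2.13 ± 0.361 CPM with DMSO at 6 days (-4.08 ± 0.39; 3.25e-08). The non-muscle paralogue Actn4, also named after its values were seen, had 347 CPM with WM-1119 and 351 CPM with DMSO at 3 days and did not pass at either time (adjusted p = 0.823 and 0.992).

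Of 12 tetraspanins and integrin cofactors, 3 rose (3 to 4) and 2 fell (1 to 2) at 3 days, and 5 rose (5 to 5) and 1 fell (1 to 2) at 6 days. Tspan32 rose to 36.6 CPM with WM-1119, against 19.2 CPM with DMSO at 3 days (0.93 ± 0.08; adjusted p = 5.81e-09), and by 1.17 ± 0.07 at 6 days (5.43e-11). Cd82 rose by 0.45 and 0.72 (adjusted p = 0.000997 and 1.40e-06). Emb, whose product embigin promotes cell-substrate adhesion, fell at 3 days (-0.59 ± 0.10; adjusted p = 0.000177) and did not pass at 6 days (-0.09 ± 0.10; 0.531). Plaur, the urokinase receptor gene, rose at 6 days (1.15 ± 0.20; adjusted p = 0.000118) and did not pass at 3 days (0.46; 0.119).

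Of 20 matrix ligands 9 were tested, of which 0 rose (0 to 0) and 2 fell (1 to 3) at 3 days, and 1 rose (0 to 1) and 1 fell (1 to 2) at 6 days. Spp1, which encodes the integrin ligand osteopontin, fell to 2.82 CPM with WM-1119, against 5.68 CPM with DMSO at 3 days (-1.04 ± 0.17; adjusted p = 8.86e-05), and by 0.71 ± 0.16 at 6 days (0.00146). Lamc1, a laminin chain, fell at 3 days (-0.34 ± 0.09; adjusted p = 0.0157; 0.0563 without DMSO replicate 2 of 3 days and 0.102 in a fit of the 3 day groups alone). At 6 days it missed the threshold (-0.24 ± 0.09; 0.0607), but passed in a fit of the 6 day groups alone, without pairing (0.00201) and with it (0.000449), with DESeq2 (0.0137), with thinned libraries (0.0422), and without WM-1119 replicate 1 (0.000710) or 2 (0.00851) of 3 days. Lamb3, another laminin chain, had 0.908 CPM with WM-1119 and 0.341 CPM with DMSO at 6 days (1.44 ± 0.46; adjusted p = 0.0204), a call lost without WM-1119 replicate 3 (0.252) or DMSO replicate 1 (0.101) or 3 (0.0544) of 6 days.

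The profiles most like those of Cdh17, Jam2 and Adgrg1 were sought among the 10873 tested genes that averaged 1 CPM or more, by the root mean square difference of log2 CPM about the gene mean over the 12 libraries. Closest to Cdh17 were Dkk3 (0.224), a secreted protein gene of the Dickkopf family, Ptgir (0.276), the prostacyclin receptor gene, and Csf2rb2 (0.276), the β chain of the interleukin-3 receptor in mice, where the median over all genes was 1.11. Dkk3 ranged over 3.77 to 7.14 CPM in the 6 WM-1119 libraries and 0.665 to 1.83 CPM in the 6 DMSO libraries. Closest to Jam2 were Hspa1b (0.218), a heat shock gene with a near-identical copy whose reads may be split, Ndrg1 (0.265), a stress-responsive gene, and Fos (0.265), a subunit of AP-1, with a median of 1.12. Ndrg1 ranged over 2.51 to 3.56 CPM with WM-1119 and 10.8 to 12.9 CPM with DMSO. Among the 3 closest to Adgrg1 were Apbb1 (0.258), an adaptor that binds amyloid precursor protein, and Tal1 (0.259), a transcription factor of blood stem cells, with a median of 0.865. Tal1 ranged over 15.1 to 26.5 CPM with WM-1119 and 5.33 to 7.68 CPM with DMSO.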

How the data were processed

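The authors deposited 1 table of raw read counts per gene for 12 libraries, which per the submitters' processing notes was made with featureCounts on mm10; the sources used here give no aligner, strand setting or rule for multiply mapped reads. Per the labels' protocols, libraries were TruSeq stranded mRNA. The deposited gene length, in bases, was used for RPKM. Of 27179 entries 874 without an identifier (0.305% to 0.362% of counts) were left out, and 25275 of 26305 identifiers matched a RefSeq symbol.

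Counts were scaled with TMM, filtered with filterByExpr to 11997 genes and fitted with 4 group means by edgeR 4.0.16 (quasi-likelihood, robust; R 4.3.3), with a common biological coefficient of variation of 5.69%. P-values are two-sided, with Benjamini-Hochberg adjustment across every gene tested in that contrast, and 0.05 as the limit, which an exact permutation of 3 against 3 libraries cannot reach. Replicates within a group differed beyond sampling noise. The test was checked on simulated counts.

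The 9 genes and the 8 adhesion lists were chosen with earlier results of these data known. The text names the 9 genes, from each list up to 3 called genes with the smallest p at each time, the partners and ligands Itgb1, Itgb2, Vcam1, Madcam1 and Fn1, and genes with profiles like Cdh17, Jam2 and Adgrg1; other names are marked, and 2 genes that this rule names are not reported here. Same-numbered WM-1119 and DMSO libraries deviated together at 6 days (correlations across genes of 0.193, 0.144 and 0.243) but not at 3 days (-0.023, 0.039 and 0.006). The main fit, from which the standard errors and adjusted p-values of the Results come unless marked, used no pairing at either time. Pairing by replicate number was tried only as an alternative. The alternatives tried were upper-quartile and RLE scaling, DESeq2 1.42.0, limma voom (limma 3.58.1), no filter on low counts or one at 1 CPM in 3 libraries, the compared groups alone, the replicate block, each library left out, libraries thinned to 14691369 counts, and the 5 libraries with over 1 CPM of Col1a1 left out; the block for 6 days alone was chosen after seeing the data.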

Additional observations from a re-analysis of the deposited data

How the results depend on the processing

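Over 22 alternatives at 3 days and 23 at 6 days, the log2 fold changes of Cdh17, Jam2, Adgrg1, Icam1, Icam2, Itga4, Itgal and Itgb7 kept their sign. Actn1 kept it at 3 days (-0.51 to -0.46) and in 21 of 23 alternatives at 6 days (-0.02 to 0.03). Cdh17 ranged over 1.67 to 1.81 at 3 days and 2.39 to 2.75 at 6 days, and Itgb7, on few counts, over 0.91 to 1.35 and 0.81 to 1.34. Adgrg1 and Actn1 passed for averaged time in all 21 alternatives (adjusted p up to 0.0129 and 0.0164). No result changed sign while past the threshold. Thinned libraries also lost the 3 day calls of Itgb1 (edgeR adjusted p = 0.0638), Adgrl1 (0.117) and Pcdhgc3 (0.0708) and the 6 day call of Itgav (0.0517). Upper-quartile scaling also lost the 6 day call of Itgav (0.0629). With no filter the 6 day call of Spn (0.0585) and the 3 day call of Lamc1 (0.0537) were lost. With the replicate block in the whole fit, 3157 genes were called at 3 days (2932 without), 3904 at 6 days (3693), 1349 for averaged time (1063), 789 for time in WM-1119 (674), 100 for the change of effect (87) and 167 for time in DMSO (97). The libraries of 6 days fitted alone gave 4352 called genes with pairing and 3360 without, with 39 and 37 adhesion list genes higher and 24 and 22 lower, and pairing changed no call of the named genes between these 2 fits. Time in DMSO also gave 173 genes with no filter, 171 with DESeq2, 47 with the compared groups alone and 537 without the 5 libraries with over 1 CPM of Col1a1. Time in WM-1119 gave 1117 with the groups alone and 268 without those 5 libraries. Without them 6 days gave 1516 called genes, 18 adhesion genes higher and 13 lower, and the change of effect 5, with fewer samples in each fit; the cause beyond that was not tested. Leaving out 1 library gave 2167 to 3249 genes at 3 days, 2924 to 3788 at 6 days, 548 to 1189 for averaged time, 41 to 158 for time in DMSO, 309 to 1100 for time in WM-1119 and 46 to 217 for the change. Averaged time moved most without WM-1119 replicates 2 (548) and 3 (583) of 3 days, WM-1119 replicates 1 (632) and 3 (696) and DMSO replicate 3 (684) of 6 days, and DMSO replicate 1 of 3 days (690). Adhesion list genes numbered 20 to 28 higher and 16 to 24 lower at 3 days, and 34 to 40 higher and 16 to 24 lower at 6 days. Low counts limit the precision of Itgb7, Pkp2, Lamb3, Itga1, Emcn, Fn1 and Actn2, each under 3 CPM in some group. Celsr2, Spp1, Plaur and Adgrg1 (2.97 CPM with DMSO at 6 days) were also under 3 CPM in some group.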

Other observations

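The nearest tested genes on either side of the 9, 18 in all, were read after their values were seen. Of these 6 passed at 3 days and 4 at 6 days, Adgrg3 beyond Adgrg1 among them, and 12 passed at neither time. Over all tested genes 24.4% passed at 3 days and 30.8% at 6 days, so nothing is read from the count of neighbours. Gem, a GTPase gene 43164 bases below Cdh17, rose with WM-1119 at both times (log2 fold change 0.59 ± 0.10 and 0.85 ± 0.09, SE; edgeR adjusted p = 8.81e-05 and 2.75e-07), while Pdp1, 140278 bases above it, did not pass (0.07 at each time; adjusted p = 0.538 and 0.550). Zfp36l1, an RNA-binding protein gene 54529 bases below Actn1, fell at both times (-0.56 ± 0.05 and -0.38 ± 0.05; adjusted p = 7.84e-08 and 1.32e-05), and Dcaf5 on the other side did not pass (adjusted p = 0.909 and 0.988). Ern1, which encodes the stress sensor IRE1α and lies 9481 bases above Icam2, fell by 0.34 ± 0.09 and 0.70 ± 0.09 (adjusted p = 0.00534 and 1.97e-06). On its other side Scn4a, a sodium channel gene, rose at 3 days (0.90 ± 0.16; adjusted p = 0.000223) and missed the threshold at 6 days (0.41 ± 0.16; 0.0592). On the other side of Adgrg1, Dok4 rose at 3 days on few counts (1.07 ± 0.38; adjusted p = 0.0446) and did not pass at 6 days (0.07 ± 0.37; 0.901). The neighbours of Jam2 (Mrpl39 and Atp5j) and of Icam1 (Mrpl4 and Icam4), and those of Itga4, Itgal and Itgb7, did not pass at either time.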
